A study of Mus musculus with 6 samples.

Results

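The genes described here encode respiratory complex I, read from poly(A) RNA of natural killer (NK) cells. Members were taken by name, as every gene row whose symbol begins with Nduf or mt-Nd, with numbered pseudogenes left out. This gave 54 of 27763 rows. Of these, 36 are nuclear-encoded structural subunits, 7 are mitochondrial-encoded core subunits (mt-Nd), 8 are assembly factors (Ndufaf), and 3 carry the name without belonging to the complex. The last 3 are Ndufa4, now counted with complex IV, its paralog Ndufa4l2, and the processed pseudogene Ndufab1-ps.

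The cells came from the spleen of wild-type C57BL/6 mice aged 6 weeks, in 2 groups of 3 libraries each, DN NK and cNK. What the short names stand for, which surface markers separated the groups, and whether each library stems from its own mouse are not given in the labels. The p-values therefore cover the spread among libraries, which may be technical. Both groups share strain, age, genotype and organ, and the title of the study names an immature NK subset resident in the spleen and the dependence of its maturation on T-bet.

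Complex I is the first and largest complex of the respiratory chain. It takes electrons from NADH in a matrix arm, passes them along iron-sulphur clusters to ubiquinone, and pumps protons through a membrane arm. The membrane core is encoded by the mitochondrial genome, while the matrix core, the accessory subunits and the assembly factors come from nuclear genes, so that both genomes have to supply parts of the same complex. Oxidative phosphorylation is known to support NK cell responses to stimulation.

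In DN NK, transcripts of the nuclear-encoded subunits were mostly lower, by about 2-fold or less, while 6 of the 7 mt-Nd rows did not pass the test. Of the 36 nuclear subunits, 27 fell and none rose, against a background in which 30.9% of all 11690 tested rows fell and 30.8% rose, together 61.7%. Of the 8 assembly factors, 2 fell and 1 rose, and of the 7 mt-Nd rows, 1 fell and none rose. The median log2 fold change, DN NK over cNK, was -0.33 over the nuclear subunits, -0.14 over the assembly factors, -0.04 over the mt-Nd rows and -0.02 over all tested rows. The largest change of any tested member was that of Ndufb3, at -0.97, with -1.05 to -0.95 over the alternatives, so that it lay on either side of 2-fold. Of all tested rows, 12.6% were called and at least 2-fold apart. No difference between these classes was tested. A gene was called at an adjusted p of 0.05 in edgeR's quasi-likelihood test, fitted on all rows with at least 1 FPKM (fragments per kilobase of exon, scaled to library size) in at least 3 libraries. That filter passed 52 of the 54 members, all but Ndufa4l2 and Ndufab1-ps. In bulk RNA, less transcript per cell and a different mix of cells cannot be told apart.

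**Figure D1:**
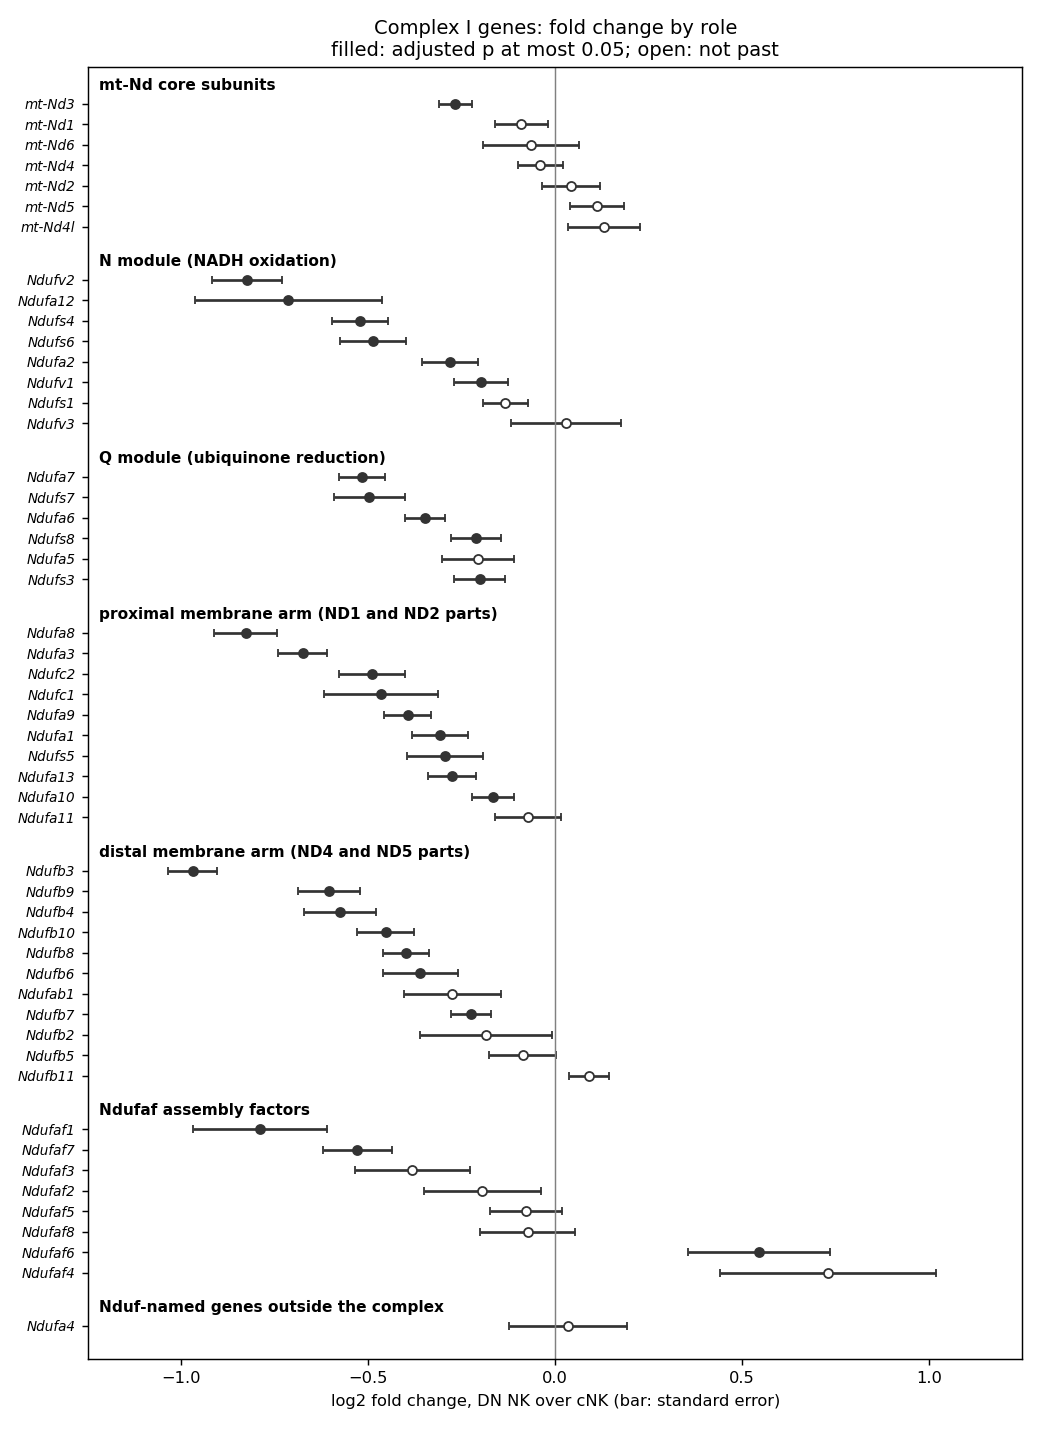
Log2 fold change, DN NK over cNK, of the tested members on the x axis, with 1 not shown, grouped by role down the page, with bars for the standard error. Filled points passed an adjusted p of 0.05. The nuclear subunits lie between -0.97 and 0.09, the mt-Nd rows between -0.27 and 0.13, and the assembly factors between -0.79 and 0.73.

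The libraries held 79798234 to 81437724 estimated counts in DN NK and 84270567 to 89526647 in cNK, at about 3.76 counts for each read pair. Both groups carried the transcripts that define NK cells. The 8 NK markers examined, among them Ncr1 and Eomes, summed to 1720 to 2055 FPKM in DN NK and 6523 to 7216 FPKM in cNK, and all 8 were lower in DN NK. The 8 B cell markers summed to 27.1 to 41.0 FPKM in DN NK and 0.932 to 1.26 FPKM in cNK, with 6 of the 6 tested higher. T cell markers summed to 234 to 247 FPKM in DN NK and 141 to 146 FPKM in cNK, with 5 of 5 tested higher. The 7 listed ILC2 and ILC3 markers summed to 48.3 to 51.1 FPKM in DN NK and 88.5 to 103.7 FPKM in cNK, with 3 of 4 tested higher and Klrg1 lower. For the 8 listed myeloid markers the sums were 124.8 to 137.5 FPKM in DN NK and 188 to 202 FPKM in cNK, with Itgax lower and Cd68 not past. Itgax alone gave 124.2 ± 6.02 FPKM in DN NK and 187.6 ± 6.93 FPKM in cNK (SD, n = 3 each). Lyz2, S100a8, S100a9 and Flt3, all below the filter, were higher in every DN NK library than in any cNK library. Their DN NK means were only 0.988, 0.0737, 0.181 and 0.0286 FPKM, and 31.0% of all tested rows had every DN NK library higher. Csf1r and Adgre1, also below the filter, overlapped between the groups. The 8 erythroid and platelet markers summed to 36.8 to 51.7 FPKM in DN NK and 28.5 to 34.3 FPKM in cNK, with 3 of 3 tested higher. S100a8, S100a9, Il22 and Pf4 were at 0 in all cNK libraries and Ppbp in all DN NK libraries. The part of other cells in the complex I differences was not tested.

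Promoters of 3 lower members are shown because they carry letters of motifs known from respiratory genes. Their capitals mark matches to the motif of nuclear respiratory factor 1 (NRF1) or of YY1 (AAGATGGCG), searched on both strands. Each window runs from 250 bases before to 50 bases after the annotated start, on GRCm38.p6, and is from RefSeq.
Ndufa8 promoter, chr2:36049289-36049588, minus strand: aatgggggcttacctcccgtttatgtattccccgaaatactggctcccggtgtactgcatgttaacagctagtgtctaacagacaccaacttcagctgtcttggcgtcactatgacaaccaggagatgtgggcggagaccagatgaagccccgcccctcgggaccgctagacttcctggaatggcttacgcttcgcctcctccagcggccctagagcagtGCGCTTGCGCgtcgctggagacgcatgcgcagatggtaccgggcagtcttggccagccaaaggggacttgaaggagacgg
Ndufb4 promoter, chr16:37654319-37654618, minus strand: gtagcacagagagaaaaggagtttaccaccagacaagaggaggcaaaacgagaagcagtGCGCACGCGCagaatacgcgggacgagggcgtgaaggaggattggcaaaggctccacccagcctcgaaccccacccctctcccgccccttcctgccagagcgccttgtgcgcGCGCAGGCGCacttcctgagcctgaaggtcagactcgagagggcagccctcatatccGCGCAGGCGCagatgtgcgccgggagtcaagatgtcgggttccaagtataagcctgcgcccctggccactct
Ndufs6 promoter, chr13:73328433-73328732, minus strand: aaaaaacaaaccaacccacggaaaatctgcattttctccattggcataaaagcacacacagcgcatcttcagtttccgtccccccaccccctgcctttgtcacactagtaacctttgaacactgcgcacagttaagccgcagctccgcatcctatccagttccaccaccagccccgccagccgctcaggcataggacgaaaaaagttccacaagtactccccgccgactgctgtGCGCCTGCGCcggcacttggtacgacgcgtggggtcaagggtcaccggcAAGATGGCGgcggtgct

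In Ndufa8 an NRF1 match begins 30 bases before the start, and in Ndufb4 3 matches begin 191, 79 and 22 bases before it. The Ndufs6 window holds an NRF1 match that begins 16 bases before the start and a YY1 match that begins at base 34 after it. Of the 44 nuclear subunits and assembly factors, 39 had a window on GRCm38.p6, and Ndufa2, Ndufb9, Ndufs1 and Ndufaf6 were among those without one. An NRF1 match was found in 9 of the 39 (23.1%), against 5.19% of the 27025 genes with a window and 12.9% of the tested ones. YY1 letters were in 6 members (15.4%), against 1.64% of all genes and 4.36% of the tested ones. Another motif, CCGGAAG of ETS factors such as GABP, was in 6 members (15.4%), against 9.93% and 23.2%. At least 1 of the 3 motifs was present in 19 of the 39 members (48.7%), against 15.1% of all genes with a window and 35.6% of the tested ones. By call, 14 of the 27 lower members and 5 of the 12 others with a window held at least 1, which was not tested. NRF1 matches were not confined to lower members. They lay in Ndufa6, Ndufa8, Ndufb4, Ndufs5 and Ndufs6, which fell, and in Ndufa5, Ndufa11, Ndufaf4 and Ndufaf5, which were not called. Ndufb3 held none of the 3 motifs. The motif letters of NRF1 read on both strands can overlap themselves, so genes and not matches were counted, and a match is a description of the letters only.

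The matrix arm begins with the N module, which oxidises NADH. Of its 8 tested subunits 6 fell and none rose, beside 30.9% and 30.8% of all tested rows. Their median log2 fold change was -0.38. Ndufv2, which carries an iron-sulphur cluster beside the flavin site, had 10.9, 12.1 and 12.8 FPKM in DN NK and 19.2, 22.3 and 24.6 FPKM in cNK. All 3 DN NK libraries lay below all cNK libraries, and the log2 change was put at -0.83 (SE 0.09, adjusted p = 0.000101). Ndufs4, an accessory subunit whose loss in mice gives a mitochondrial encephalopathy, had 10.4, 11.4 and 11.8 FPKM in DN NK and 15.2, 18.2 and 17.1 FPKM in cNK. Its groups did not overlap either, with -0.52 as log2 fold change (SE 0.08, adjusted p = 0.000391).

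Ndufa12, an accessory subunit of the same module, was less even. It had 6.81, 9.98 and 5.71 FPKM in DN NK and 9.86, 15.2 and 13.6 FPKM in cNK, so that DN NK replicate 2 lay just above cNK replicate 1. Its log2 fold change of -0.71 (SE 0.25) passed narrowly, at adjusted p = 0.0465, with an adjusted p from 0.00213 to 0.141 over the alternatives. Without DN NK replicate 1 or 3 it stood at adjusted p = 0.141 and 0.0960, and without cNK replicate 2 or 3 at 0.127 and 0.114. Ndufa2, the most abundant subunit of this module per length, had 38.9, 42.0 and 41.4 FPKM in DN NK and 52.9, 47.6 and 54.5 FPKM in cNK, without overlap, at -0.28 (SE 0.07, adjusted p = 0.0101). Ndufs6 fell as well (-0.49), as did Ndufv1, which binds NADH and the flavin (-0.20, adjusted p = 0.0397). Ndufv1 lost its call without DN NK replicate 2 or 3 (adjusted p = 0.116 and 0.0741) or without cNK replicate 1 or 3 (0.0748 and 0.126). Ndufs1, the largest core subunit, and Ndufv3 did not pass, at -0.13 and 0.03, although every DN NK library of Ndufs1 lay below every cNK library. Ndufs1 passed without cNK replicate 1, at -0.18 (adjusted p = 0.0248), and with upper-quartile factors (-0.22, adjusted p = 0.0129), no filter (-0.20, 0.0264) or edgeR's default filter (-0.19, 0.0297).

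The Q module reduces ubiquinone. In it 5 of 7 subunits fell and none rose, beside 30.9% and 30.8% of all tested rows. Their median log2 fold change was -0.21. Ndufa7, an accessory subunit, had 16.7, 17.5 and 17.1 FPKM in DN NK and 25.6, 27.0 and 24.0 FPKM in cNK, which put its log2 fold change at -0.52 (SE 0.06, adjusted p = 0.000132). Ndufs7, which holds the last iron-sulphur cluster before ubiquinone, had 6.40, 6.71 and 7.91 FPKM in DN NK and 10.3, 9.83 and 10.8 FPKM in cNK (log2 fold change -0.50, SE 0.09, adjusted p = 0.00197). Ndufa6, a small subunit of the LYR protein family, was the most abundant of the module per length, with 49.0, 50.7 and 51.8 FPKM in DN NK and 66.4, 69.0 and 65.9 FPKM in cNK, at -0.35 (SE 0.05, adjusted p = 0.000574). In none of the 3 genes did the groups overlap.

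The other Q module subunits moved less. Ndufs3 and Ndufs8, both core subunits, had log2 fold changes of -0.20 (adjusted p = 0.0299) and -0.21 (adjusted p = 0.0234). With 1 library left out, Ndufs3 lost its call in 5 of 6 cases, at 0.0886 and 0.0902 without DN NK replicates 1 and 3 and at 0.0782, 0.0533 and 0.0552 without cNK replicates 1, 2 and 3. Ndufs8 lost it in 4, at 0.0656 and 0.0615 without DN NK replicates 1 and 3 and at 0.0679 and 0.0561 without cNK replicates 1 and 2. Ndufa5 did not pass at -0.21 (adjusted p = 0.0938). Over the 7 nuclear core subunits of both modules, 5 fell, with a median of -0.20. Over the 29 accessory subunits 22 fell, with a median of -0.36, where 30.9% of all tested rows fell. The difference between core and accessory subunits was not tested.

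Among the subunits placed here in the proximal membrane arm, 9 of 10 fell and none rose, beside 30.9% and 30.8% of all tested rows. Their median log2 fold change was -0.35. Ndufa8, a protein of the intermembrane face with paired cysteine motifs, had 20.3, 24.5 and 23.8 FPKM in DN NK and 40.7, 45.8 and 40.5 FPKM in cNK. The DN NK libraries lay far below the cNK libraries, with -0.83 as log2 fold change (SE 0.08, adjusted p = 5.43e-05), or 1.78-fold lower. Ndufa3, a small subunit that crosses the membrane once, had 37.3, 36.9 and 39.6 FPKM in DN NK and 57.0, 67.5 and 65.3 FPKM in cNK (log2 fold change -0.68, SE 0.07, adjusted p = 4.66e-05). Ndufc2 had 16.2, 18.2 and 19.9 FPKM in DN NK and 25.9, 27.9 and 25.7 FPKM in cNK, at -0.49 (SE 0.09, adjusted p = 0.00142).

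Ndufa1, an X-linked subunit and the most abundant of the proximal arm per length, had 62.3, 61.8 and 68.2 FPKM in DN NK and 80.97, 77.3 and 90.01 FPKM in cNK, without overlap, at -0.31 (SE 0.07, adjusted p = 0.00658). Ndufa9, which sits beside the ubiquinone channel and was counted here with the proximal arm, fell by 0.40 on the log2 scale. Ndufa13, also known as Grim19, fell by 0.28. Ndufc1, Ndufs5 and Ndufa10 passed more narrowly. Ndufc1 stood at -0.47 (adjusted p = 0.0266), lost without DN NK replicates 1 or 3 (adjusted p = 0.0535 and 0.0779) and cNK replicates 1 or 3 (0.0580 and 0.0773). Ndufs5 stood at -0.29 (adjusted p = 0.0346), lost without DN NK replicates 1 or 2 (0.0910 and 0.0678) and without cNK replicates 1, 2 or 3 (0.0591, 0.0524 and 0.103). Ndufa10 stood at -0.17 (adjusted p = 0.0299), lost without DN NK replicates 1 or 2 (0.0561 and 0.0930) and cNK replicates 2 or 3 (0.0951 and 0.0623). Ndufa11 did not pass, at -0.07.

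The distal membrane arm held both the largest fall and the most abundant nuclear subunit. Of its 11 tested subunits 7 fell and none rose, beside 30.9% and 30.8% of all tested rows, with a median of -0.36. Ndufb3, a small accessory subunit of this arm, had 22.6, 23.1 and 25.1 FPKM in DN NK and 45.1, 49.7 and 49.7 FPKM in cNK. The groups were far apart, and Ndufb3 was 1.96-fold lower in DN NK (log2 fold change -0.97, SE 0.07, adjusted p = 6.47e-06). Ndufb9, another LYR protein, had 25.2, 29.7 and 26.4 FPKM in DN NK and 42.4, 45.7 and 40.9 FPKM in cNK (log2 fold change -0.60, SE 0.08, adjusted p = 0.000286). Ndufb4 had 5.78, 5.88 and 6.05 FPKM in DN NK and 8.76, 10.1 and 8.75 FPKM in cNK, at -0.58 (SE 0.10, adjusted p = 0.000938).

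Ndufb11, an X-linked subunit of the same arm, did not pass the test. It had 104.7, 103.7 and 102.9 FPKM in DN NK and 106.4, 97.8 and 100.9 FPKM in cNK, with overlapping groups, and its log2 change of 0.09 was small (SE 0.05, adjusted p = 0.178). Ndufb10, Ndufb8, Ndufb6 and Ndufb7 fell by 0.45, 0.40, 0.36 and 0.23 on the log2 scale. Ndufb5, Ndufb2 and Ndufab1, the mitochondrial acyl carrier protein that also serves fatty acid synthesis, did not pass at -0.09, -0.19 and -0.27. Without cNK replicate 2 the Ndufb2 value turned to 0.04, still not past.

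**Figure D2:**
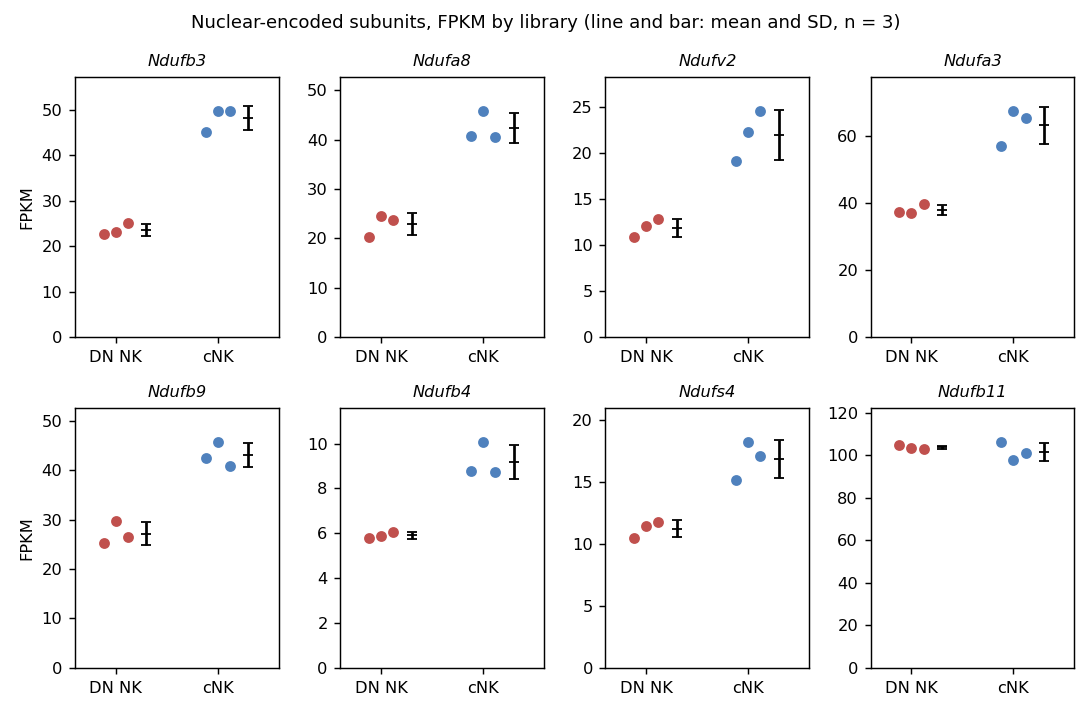
FPKM per library on the y axis, each panel from 0, for 8 nuclear-encoded subunits in DN NK and cNK, with the mean and SD of 3 libraries beside the points. The groups are apart in the first 7 genes and overlap in Ndufb11, where all 6 libraries lie between 97.8 and 106.4 FPKM.

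Counted over the nuclear subunits, 29 of 36 had every DN NK library below every cNK library in FPKM, against 39.3% of all tested rows, and none had every DN NK library above, against 31.0% (together 70.3%). The groups overlapped in 7, among them Ndufa11, Ndufa12, Ndufb2, Ndufb5, Ndufb11 and Ndufv3. Levels of different subunits can be set beside each other only roughly. In 42 members the deposited FPKM matches a division by the union of a gene's annotated exon bases within 5%, and in 11, among them Ndufa6, Ndufb4, Ndufb9, Ndufa11 and Ndufaf7, it does not. In genes where it matches, these bases reach 5628 for Ndufb2 and 6883 for Ndufab1 against 763 for Ndufb3 and 908 for Ndufb11. A low FPKM of the first 2 genes (1.19 ± 0.0652 and 1.23 ± 0.0690 in DN NK, 1.41 ± 0.379 and 1.56 ± 0.281 in cNK, SD, n = 3 each) is therefore an average over all of these bases, whether or not the cells use them. Fold changes of 1 gene use the same length in both groups, which does not allow for a shift between its transcripts. Such a shift was not tested. Over the 36 nuclear subunits, the Spearman correlation of log2 fold change with union exon bases was 0.38, a description without a test.

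The 7 mt-Nd genes encode the proton-pumping membrane core. Of these only mt-Nd3 passed the test. It fell, with 465, 463 and 449 FPKM in DN NK and 546, 596 and 587 FPKM in cNK, groups that did not overlap, and its log2 change was put at -0.27 (SE 0.05, adjusted p = 0.00101). mt-Nd1 had 2185, 2285 and 1950 FPKM in DN NK and 2336, 2402 and 2400 FPKM in cNK. Its DN NK libraries were all lower, but its value of -0.09 on the log2 scale (SE 0.07, adjusted p = 0.290) did not pass.

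In the other 5 the groups overlapped. mt-Nd2 had 1644, 1705 and 1526 FPKM in DN NK and 1542, 1575 and 1824 FPKM in cNK, at a log2 fold change of 0.04 (SE 0.08). mt-Nd4 had 1152, 1212 and 1103 FPKM in DN NK and 1172, 1239 and 1309 FPKM in cNK, at -0.04 (SE 0.06). mt-Nd4l, which shares its transcript with mt-Nd4, had 1572, 1577 and 1328 FPKM in DN NK and 1387, 1306 and 1574 FPKM in cNK, at 0.13 (SE 0.10). The 2 genes share 7 exon bases. For mt-Nd5 the values were 968, 991 and 881 FPKM in DN NK and 835, 941 and 966 FPKM in cNK, at 0.11 (SE 0.07). mt-Nd6, the only one on the other strand, had 828, 772 and 695 FPKM in DN NK and 744, 769 and 994 FPKM in cNK, at -0.06 (SE 0.13). It shares 14 bases with mt-Nd5, and the library kit does not mark the strand, so antisense reads count for both. Adjusted p of these 5 ran from 0.206 to 0.686.

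**Figure D3:**
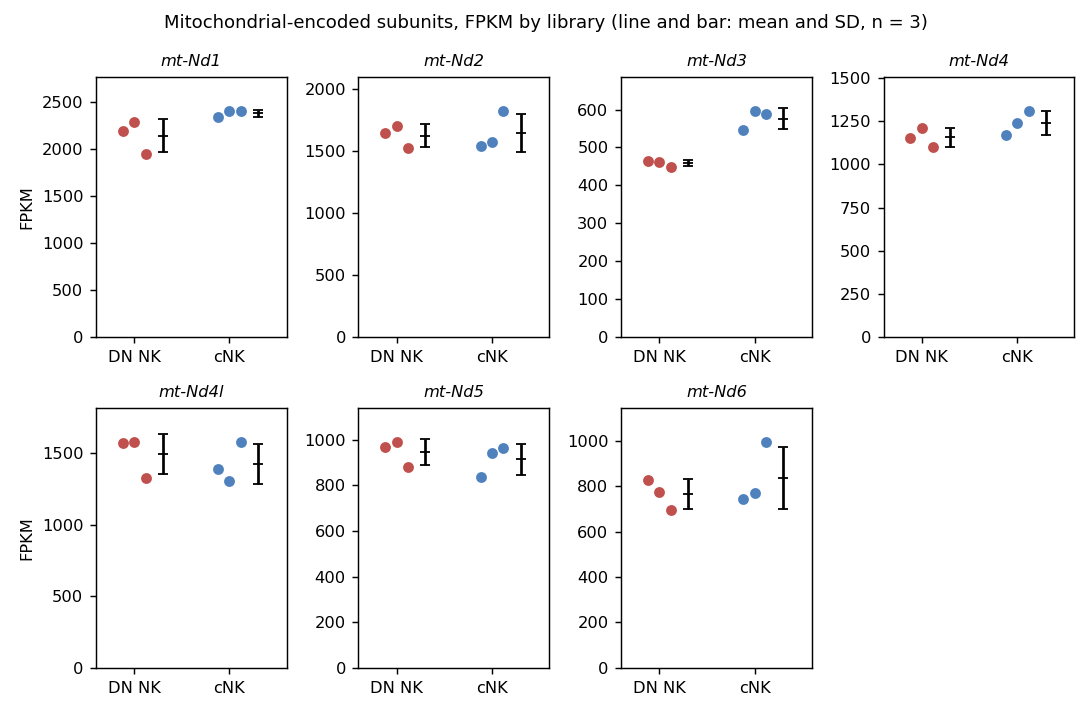
FPKM per library on the y axis, each panel from 0, for the 7 mitochondrial-encoded subunits in DN NK and cNK, with the mean and SD of 3 libraries beside the points. The groups are apart in mt-Nd3 and mt-Nd1 and overlap in the other 5.

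On the reference mitochondrial chromosome (GRCm38, as deposited) mt-Nd1 spans 2751 to 3707, mt-Nd2 3914 to 4951, mt-Nd3 9459 to 9806, mt-Nd4l 9877 to 10173, mt-Nd4 10167 to 11544 and mt-Nd5 11742 to 13565 on the plus strand, and mt-Nd6 13552 to 14070 on the minus strand. The whole chromosome took 3.65, 3.68 and 3.29% of the estimated counts in DN NK and 3.77, 3.71 and 3.86% in cNK. The 6 other mRNAs of the chromosome had a median log2 fold change of -0.01. Of these, mt-Cytb (0.18, adjusted p = 0.0477) and mt-Co2 (-0.17, adjusted p = 0.0483) passed narrowly. Without DN NK replicates 1 or 2, or cNK replicates 1 or 2, mt-Cytb stood at adjusted p = 0.174, 0.154, 0.122 and 0.124. It was also lost with upper-quartile factors (0.254), with mitochondrial rows left out of the scaling (0.0519), and with no filter, the default filter, a mean of at least 5 FPKM, both limma fits and the replicate block (0.0621 to 0.131). Without DN NK replicates 1 or 3, or cNK replicates 1, 2 or 3, mt-Co2 stood at 0.0757, 0.132, 0.0767, 0.0631 and 0.139, and it was lost with median-ratio factors (0.0628) and with the replicate block (0.0589).

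Summed over genes, the nuclear subunits gave 716, 747 and 760 FPKM in DN NK and 965, 996 and 997 FPKM in cNK, a ratio of means of 0.751. The mt-Nd rows gave 8813, 9004 and 7932 FPKM in DN NK and 8562, 8828 and 9654 FPKM in cNK, with overlapping groups and a ratio of 0.952, which became 1.01 when each library was scaled to the same total outside the mitochondrial chromosome. Within each library, mt-Nd FPKM stood to nuclear FPKM as 12.3, 12.1 and 10.4 in DN NK and as 8.87, 8.86 and 9.68 in cNK. Every DN NK library had the higher ratio, on average 11.6 ± 1.02 in DN NK and 9.14 ± 0.472 in cNK (SD, n = 3 each). This ratio does not depend on how the libraries are scaled against each other, is weighted to the most abundant genes, and was not tested.

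**Figure D4:**
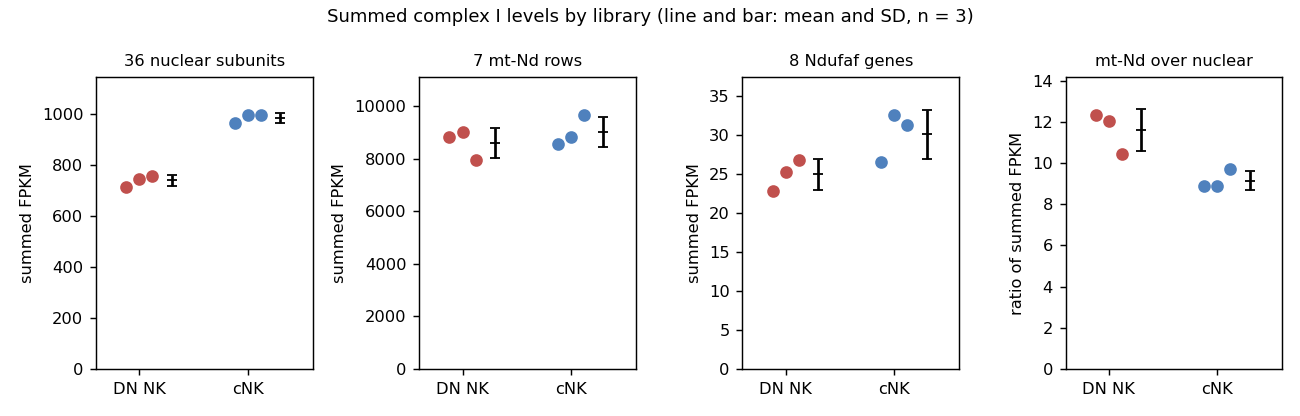
Summed FPKM per library on the y axis for the 36 nuclear subunits, the 7 mt-Nd rows and the 8 Ndufaf genes, and the ratio of the second to the first sum, in DN NK and cNK, with the mean and SD of 3 libraries. The nuclear sums (716 to 760 FPKM in DN NK, 965 to 997 FPKM in cNK) and the ratios (10.4 to 12.3 in DN NK, 8.86 to 9.68 in cNK) do not overlap, whereas the mt-Nd and Ndufaf sums do.

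The 8 Ndufaf assembly factors build the complex and are not part of it. Of these, 2 fell and 1 rose, beside 30.9% and 30.8% of all tested rows, and 6 had a log2 fold change below 0. Their medians and counts are given above, and their sums were 22.9, 25.3 and 26.8 FPKM in DN NK and 26.6, 32.5 and 31.2 FPKM in cNK. Ndufaf1, which works in the membrane arm assembly complex with Acad9, Ecsit and Tmem126b, had 1.91, 2.32 and 2.29 FPKM in DN NK and 2.93, 4.36 and 4.53 FPKM in cNK (log2 fold change -0.79, SE 0.18, adjusted p = 0.00483). Ndufaf7, known in human cells as a methyltransferase acting on a core subunit, had 4.27, 4.74 and 4.59 FPKM in DN NK and 6.13, 7.43 and 6.93 FPKM in cNK (log2 fold change -0.53, SE 0.09, adjusted p = 0.00126). Both had all DN NK libraries below all cNK libraries.

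Ndufaf6 was the 1 member that rose. It had 1.62, 1.48 and 1.48 FPKM in DN NK and 0.928, 1.33 and 1.01 FPKM in cNK, from 172 to 191 estimated counts in DN NK and 121 to 165 in cNK, which are the lowest of the tested members. This put it at 0.55 on the log2 scale (SE 0.19, adjusted p = 0.0348). The call was lost without DN NK replicates 1, 2 or 3 (adjusted p = 0.10, 0.0737 and 0.0637) and without cNK replicates 1 or 3 (0.0966 and 0.0891), with an adjusted p of 0.0174 to 0.117 over all alternatives. Ndufaf4 had 1.27, 2.5 and 2.79 FPKM in DN NK and 1.17, 1.39 and 1.55 FPKM in cNK. DN NK replicate 1 stood apart from the other 2 and within the cNK range, and the log2 fold change of 0.73 (SE 0.29, adjusted p = 0.0664) did not pass. Without DN NK replicate 1 it was 0.99 (adjusted p = 0.00100).

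Ndufaf3, which works with Ndufaf4 on the Q module, had 2.15, 3.11 and 3.04 FPKM in DN NK and 3.39, 3.997 and 3.89 FPKM in cNK, groups that did not overlap. At -0.38 (SE 0.15, adjusted p = 0.0584) it did not pass. Over the 17 alternatives its value ran from -0.49 to -0.25, and it passed in 8 of them. Among these were DESeq2 (adjusted p = 0.0489), no filter (0.0413), the replicate block (0.0272), and the fit without DN NK replicate 2 (-0.49, adjusted p = 0.0431). Ndufaf2, a paralog of Ndufa12 that acts late in assembly, had 1.09, 1.54 and 1.45 FPKM in DN NK and 1.603, 1.78 and 1.48 FPKM in cNK, at -0.20 (SE 0.16). Its exons share 1955 bases with an antisense non-coding gene, so its reads are uncertain. Ndufaf5 had 3.46, 3.42 and 3.57 FPKM in DN NK and 3.72, 4.04 and 3.75 FPKM in cNK, at -0.08 (SE 0.10). Its partner Ndufaf8 had 7.10, 6.17 and 7.62 FPKM in DN NK and 6.69, 8.21 and 8.08 FPKM in cNK, at -0.07 (SE 0.13). None of these 3 passed.

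**Figure D5:**
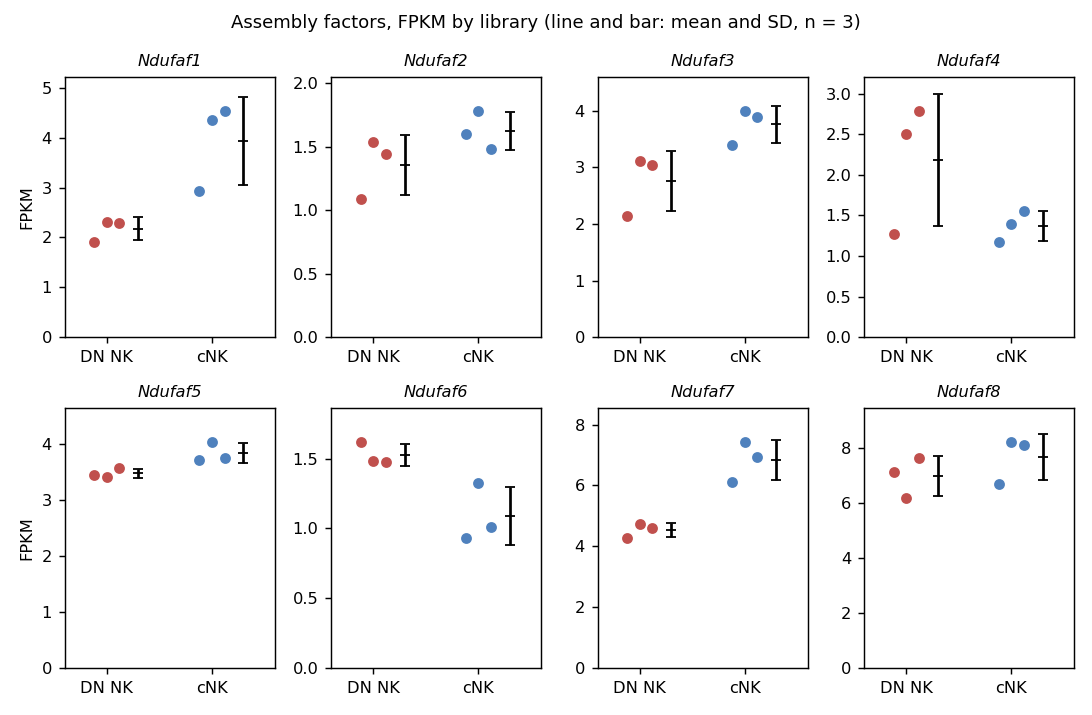
FPKM per library on the y axis, each panel from 0, for the 8 Ndufaf assembly factors in DN NK and cNK, with the mean and SD of 3 libraries beside the points. Ndufaf1 and Ndufaf7 are lower in DN NK, Ndufaf6 is higher, and Ndufaf4 shows 1 DN NK library at 1.27 FPKM beside 2 at 2.5 and 2.79.

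Assembly factors without the Nduf name gave 5 lower and 1 higher of 10 tested, against 30.9% lower and 30.8% higher of all tested rows, with a median log2 fold change of -0.31. Of the genes that passed, Lyrm2 stood at -0.64 (adjusted p = 0.00349), Tmem126b at -0.42 and Bcs1l, known mainly for complex III, at -0.38. Tmem70 was at -0.38 too and did not pass (adjusted p = 0.0734). Acad9, an acyl-CoA dehydrogenase that binds Ndufaf1, rose by 0.30 (adjusted p = 0.00580). Of the partners of Ndufaf1 named above, Tmem126b fell, Acad9 rose, and Ecsit did not pass at -0.05. Timmdc1 (-0.38) and Aifm1 (-0.23) were the other genes of this list called lower. In all, 9 of the 10 tested had a log2 fold change below 0.

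Other enzymes that deliver electrons to ubiquinone, complex II among them, gave 7 lower and none higher of 10 tested, beside the same 30.9% and 30.8%, with a median of -0.54. Prodh, proline dehydrogenase, stood at -0.98 (adjusted p = 0.000158). Etfa, an electron transfer flavoprotein chain of fatty acid oxidation, stood at -0.69, and Gpd2, the mitochondrial glycerol phosphate dehydrogenase, at -0.66. Genes of mitochondrial transcription and RNA stability gave 6 higher and 4 lower of 18 tested, near or below the 30.8% and 30.9% of all tested rows. Supv3l1, an RNA helicase, Tfb2m, the transcription initiation factor, and Fastkd2 rose by 1.02, 0.96 and 0.80 on the log2 scale. Tfb1m, the ribosomal RNA methyltransferase, Mterf1a and Mterf1b stood at -0.62, -0.65 and -1.30, where the last 2 are close copies that may share reads. Polrmt, the mitochondrial RNA polymerase, and Tfam did not pass, at 0.03 and 0.08.

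Nuclear regulators of respiratory genes gave 2 higher and 4 lower of 11 tested, a total share below the 61.7% of all tested rows. Gabpb1 and Gabpb2, alternative partners of the ETS factor Gabpa, went opposite ways at 1.18 (adjusted p = 0.00772) and -0.77 (adjusted p = 4.91e-06), while Gabpa did not pass at -0.09. Yy1 rose by 0.59 (adjusted p = 9.16e-06). Creb1, Esrra and Nrf1 fell by 0.32, 0.25 and 0.24 on the log2 scale. The call of Esrra was lost without cNK replicate 2 (adjusted p = 0.0501). Ppargc1a, the coactivator best known for mitochondrial biogenesis, lay below the filter at 0.236 FPKM in DN NK and 0.436 FPKM in cNK.

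By the deposited gene spans (GRCm38) the nuclear subunits are scattered over 15 chromosomes, with 5 on chromosome 17 and 4 on chromosome 1. Ndufb3 spans bases 58586384 to 58595964 of chromosome 1, plus strand. Ndufa8 lies on chromosome 2 from 36036326 to 36049406 and Ndufv2 on chromosome 17 from 66078795 to 66101559, both on the minus strand. Exons of Ndufb11 and Rbm10 share 117 bases on opposite strands, and those of Ndufb5 and Mrpl47 share 616. Called genes overlap neighbours too. On opposite strands, Ndufa13 shares 375 bases with Tssk6 and Ndufb6 shares 257 with Smim27. On the same strand, Ndufb9 shares 201 with Gm49356 and Ndufb8 shares 134 with Gm20538. The unstranded counts of all these genes can include reads of the neighbour.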

How the data were processed

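Per the labels' protocols, libraries of spleen cell poly(A) RNA were made with the TruSeq RNA v2 kit, which does not mark the strand, and read in pairs of 150 bp (NovaSeq 6000). The build GRCm38 (mm10) and the tools HISAT, StringTie and edgeR stand in the submitters' processing notes. Each gene row has an FPKM and a count in every library, per the file headers. The deposited counts are estimated counts made from coverage and given as whole numbers, about 3.76 for each read pair. FPKM equals count over the union of a gene's exon bases in GENCODE M21, times a constant per library, within 2% in 93.3 to 93.4% of rows with several transcripts and at least 5 FPKM, and within 5% in 42 members. In 11 members it differs by more.

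The test covered rows reaching 1 FPKM in 3 or more libraries and was run with edgeR 4.0.16 in R 4.3.3 (TMM, robust quasi-likelihood, group as the only term, 2-sided, Benjamini-Hochberg over 11690 rows), on group labels from the sample titles. The SE is the fold change over the square root of F. Sums, means and SDs use the deposited FPKM, which carries no TMM factor. Alternatives used limma 3.58.1 and DESeq2 1.42.0, other scalings and filters, a replicate block and leaving out each library. Members and lists were chosen with earlier results of these data known. By the naming rule, all mt-Nd and Ndufaf rows, and per role the 3 largest called changes each way and the most abundant gene, got values by library. 1 member is counted but not reported by name here.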

Additional observations from a re-analysis of the deposited data

How the results depend on the processing

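No called member changed sign under any of the 17 alternatives to the fit, and 23 of 31 kept their call in all those that tested them. The other 8 are Ndufa12, Ndufaf6, Ndufa10, Ndufc1, Ndufs3, Ndufs5, Ndufs8 and Ndufv1. Deviations from the group means correlated at 0.02, 0.01 and 0.16 between same-numbered libraries and at -0.09 to 0.07 between the others. With 3 libraries per group, these values cannot show whether the replicate numbers pair the libraries. With the replicate block 31 members were lower and 2 higher, the second being Ndufaf4.

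The count of higher members, 1 here, was 0 with upper-quartile factors, no filter, edgeR's default filter or a mean of at least 5 FPKM, 2 with DESeq2 or the block, and 0 to 1 with 1 library left out. Lower members numbered 24 to 28 with 1 library left out and 24 to 35 over all alternatives. A mean of at least 5 FPKM left 6801 rows to test instead of 11690, with 2278 higher and 2336 lower. Only 2 Ndufaf rows remained under it, of which 1 was lower. The nuclear median was -0.41 with upper-quartile factors, -0.39 without a filter and -0.38 with the default filter. With limma it was -0.38 on log2(FPKM + 1) and -0.39 on log2(FPKM + 0.1). Each is lower than in the main fit, but the median of all tested rows moved as well. In the same order it was -0.10, 0.079, -0.0059, -0.064 and -0.073, against -0.016 in the main fit. Upper-quartile factors, which gave the 35 lower members, put 4373 of all tested rows lower and 3104 higher. The mt-Nd median was -0.12 with upper-quartile factors and -0.078 to 0.074 with 1 library left out, the highest without cNK replicate 3. The nuclear sum ratio was 0.800 after rescaling and 0.781 in counts scaled to equal library totals.

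Values of members that did not pass crossed 0. Ndufv3, Ndufa4 and mt-Nd2 stood at -0.057, -0.051 and -0.043 with upper-quartile factors, -0.036, -0.030 and -0.022 without a filter, -0.027, -0.022 and -0.013 with the default filter, -0.012, -0.0047 and -0.017 with limma on log2(FPKM + 1), and -0.011, -0.0043 and -0.017 on log2(FPKM + 0.1). With 1 library left out, Ndufb2 ran from -0.33 to 0.040, Ndufv3 from -0.13 to 0.14, Ndufa4 from -0.063 to 0.24, mt-Nd2 from -0.00088 to 0.12 and mt-Nd6 from -0.14 to 0.074, of which Ndufa4 alone was called, without cNK replicate 1. The causes were not tested. Ndufaf6 rests on the fewest reads of the tested members.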

Other observations

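Ndufa4, which carries the Nduf name but is counted with complex IV, had 33.1, 31.5 and 35.1 FPKM in DN NK and 42.2, 29.4 and 29.7 FPKM in cNK. cNK replicate 1 stood above all other libraries, and the log2 fold change of 0.03 (SE 0.16) did not pass. Without cNK replicate 1 it was 0.24 (adjusted p = 0.0138). Ndufa4l2, its paralog known from hypoxic cells, was at 0 in all libraries but DN NK replicate 1, where it held 0.0219 FPKM. The pseudogene Ndufab1-ps stayed below 1 FPKM in every library, at 0.442 ± 0.268 FPKM in DN NK and 0.578 ± 0.173 FPKM in cNK (SD, n = 3 each).

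Mitochondrial RNAs that are not mRNAs were not tested against the mt-Nd rows. The large ribosomal RNA mt-Rnr2 had 1053, 1038 and 908 FPKM in DN NK and 2022, 1413 and 1411 FPKM in cNK, with -0.63 as log2 fold change (SE 0.17, adjusted p = 0.0201). It was not called without a filter or without DN NK replicate 3 (adjusted p = 0.0638 and 0.0686). The small ribosomal RNA mt-Rnr1 had overlapping groups, at -0.24 (adjusted p = 0.328). Of 20 tested rows of mitochondrial transfer RNAs, 8 fell (40%, against 30.9% of all tested rows) and none rose, with a median of -0.49. The libraries were made from poly(A) RNA with the strand unmarked. These rows and the ribosomal ones therefore need not give the levels of the mature RNAs.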
